A study of Mus musculus with 46 samples.

Results

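Hearts of mice homozygous for the HrDR5 allele were compared with and without thyroid hormone (TH) after propylthiouracil (PTU). The 7 libraries were taken by tissue, genotype and treatment from the 46 libraries of heart and striatum in the series. All 7 came from the heart of adult mice labelled HrDR5/DR5, an allele that the series ties to loss of 1 nucleotide at the hairless gene, Hr. In 3 libraries (PTU) the mice had eaten low-iodine food with PTU for 15 days, which blocks hormone synthesis in the thyroid gland. In the other 4 (PTU+TH) the same diet was followed by TH for 24 hours. For PTU+TH replicate 1 the time label lacks the 24 hours, and title and treatment label placed the library in its group. Side by side stand 3 untreated mutant hearts and wild-type (WT) hearts that were untreated, on PTU or on PTU+TH (4 each), 22 heart libraries in all. With sex, strain and the number of animals behind a library not given in the sources used here, the p-values measure only the spread between libraries.

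TH acts on cells through nuclear receptors that bind DNA with or without the hormone. Without it they recruit corepressors and hold target genes down, and with it they exchange these for coactivators. In the rodent heart TH is known to raise the fast myosin heavy chain gene Myh6, the calcium pump gene Atp2a2 and pacemaker channel genes, and to lower the slow myosin gene Myh7. Hr encodes a corepressor that binds TH receptors, and its own gene is a known target of TH.

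Of 14156 genes tested, 58 were called with TH in mutant hearts (0.41%), 38 higher (0.268%) and 20 lower (0.141%), and 1007 had an unadjusted p below 0.05. A call is a Benjamini-Hochberg adjusted p below 0.05 in edgeR's quasi-likelihood F test, fitted over the 22 heart libraries. The largest rises were those of Lypd8l, the immunoglobulin gene Ighm and Rmi2, and the largest falls those of Tmem232, Slc5a1 and the kinetochore gene Cenpf. Called log2 changes ran from 0.76 to 4.25 upward, with 15 of 38 above 2, and from -0.73 to -3.11 downward, with 5 of 20 beyond -2. The median log2 change over all genes tested was 0.0030. In 57 of the 58 genes the PTU+TH and PTU libraries did not overlap, the exception being Cep128, and over all genes tested 2084 (14.7%) had groups that did not overlap, 1231 with all hormone-treated hearts above (8.7%) and 853 with all below (6.03%). Levels below are in CPM, read counts scaled to library size, changes are log2 ± standard error (SE), and means are ± standard deviation (SD). In bulk tissue, fewer cells of a type and less RNA per cell cannot be told apart.

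The number of calls depended on single libraries. It was 106 without PTU replicate 1, 16 without PTU replicate 2, 15 without PTU replicate 3, and 42, 35, 43 and 48 without PTU+TH replicates 1 to 4. None of the 58 genes changed direction in any of these fits. In each of them 11 genes were called: Hr, Nudt18, Ighm, Lypd8l, Tlcd2, Rgs7, Apln, Apod, Pde1c, and the genes without an assigned symbol Gm30735 and 9630028I04Rik. A fit of the 10 mutant libraries alone kept 31 of the 58 calls, and the calls it ended had adjusted p up to 0.147. Of 58 called genes 9 had no assigned symbol, 4 higher and 5 lower.

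**Figure D1:**
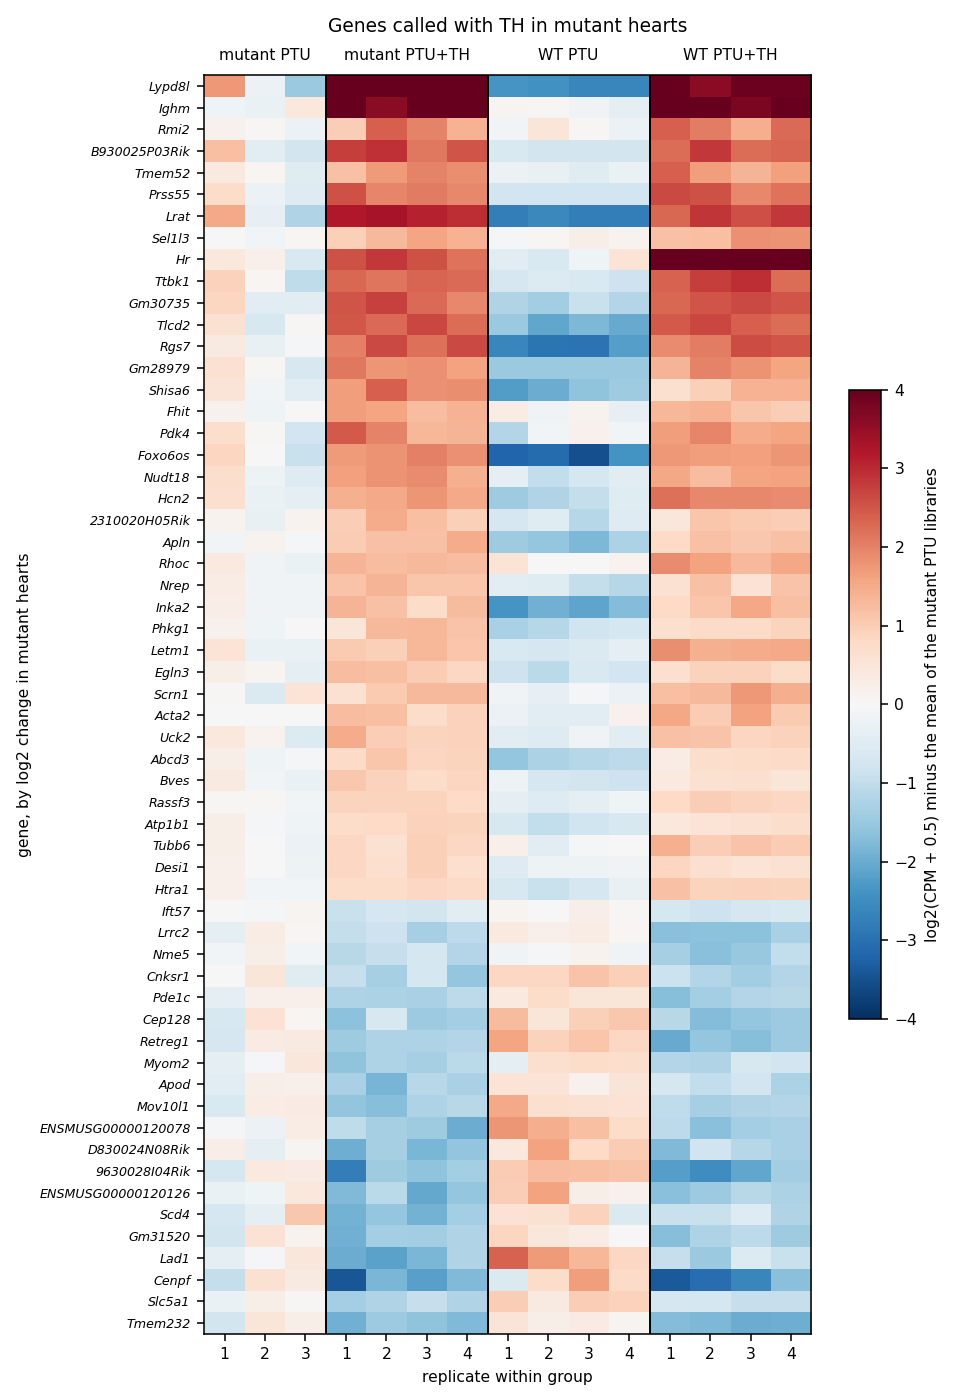
Heat map of the 58 called genes (rows, ordered by their log2 change in mutant hearts) in 15 libraries (columns, by group and replicate). Colour is log2(CPM + 0.5) minus the mean of the 3 mutant PTU libraries, limited to -4 and 4; mutant PTU replicate 1 is the reddest of its group in most of the upper rows and the bluest in most of the lower rows.

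Gene counts were 10.33 to 11.9 M per library in the PTU group and 10.73 to 13.4 M in the PTU+TH group. Reads given to no gene made up 37.1 ± 1.08% of the PTU and 36.2 ± 0.912% of the PTU+TH libraries, and mitochondrially encoded genes 42.7 ± 4.62% and 39.5 ± 3.98% of gene counts (exact two-sided permutation p = 0.4 and 0.457, where 0.0571 is the smallest that 4 against 3 allows). Markers fitted the heart label: the 12 cardiomyocyte genes summed to between 59597 and 77392 CPM, and the 12 genes of neurons and Schwann cells to between 13.3 and 21.8 CPM with PTU and between 11.9 and 36.7 CPM with PTU+TH, with Chat and Th at 0 counts in the 7 libraries. Atrial genes separated 2 libraries from the other 5. Bmp10 stood at 93.1 CPM in PTU replicate 3 and 112 CPM in PTU+TH replicate 4 against at most 0.191 CPM elsewhere, and the atrial myosin light chain gene Myl7 at 259 and 181 CPM against at most 2.78 CPM. Summed over 11 atrial genes the level ran from 329 to 2373 CPM in the PTU and from 278 to 1666 CPM in the PTU+TH group, and no member was called. With both atrial-rich libraries left out, a fit chosen after seeing the data, 2 genes were called, Lypd8l and Ighm. Hr (2.50), Nudt18 (1.49), Rgs7 (2.35), Tlcd2 (2.54), Pde1c (-1.22) and Ttbk1 (2.06) then each had an adjusted p of 0.0528.

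Hr (ENSMUSG00000022096), the gene that carries the mutation, was raised by TH. The 3 PTU libraries read 3.37, 2.78 and 1.37 CPM and the 4 PTU+TH libraries 16.3, 20.1, 16.1 and 12.4 CPM. Every hormone-treated heart stood above every PTU heart, and the log2 change was 2.68 ± 0.409 (adjusted p = 0.00215). Untreated mutant hearts read 5.33, 3.13 and 18.8 CPM, so the hormone-treated range lay within theirs only through replicate 3 and reached past it in PTU+TH replicate 2. The 4 WT PTU+TH hearts read 69.4 to 80.6 CPM, all above the mutant ones. Counts per gene do not show the deleted base, so they do not check the genotype.

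Nudt18 (ENSMUSG00000045211), a nudix hydrolase gene close to Hr, rose as well. It stood at 11.9, 6.14 and 4.90 CPM in the PTU libraries and at 23.4, 25.9, 27.6 and 20.2 CPM in the PTU+TH libraries, a log2 change of 1.65 ± 0.256 (adjusted p = 0.00224). The groups were apart, with PTU replicate 1 nearest to the hormone-treated hearts. Nudt18 was the only gene called among 24 tested neighbours of Hr, whose median log2 change was 0.01. Among the others Dok2, a docking protein gene, had the largest log2 change (1.37, adjusted p = 0.264) and Bin3 the lowest (-0.48, adjusted p = 0.698).

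Ighm (ENSMUSG00000076617), the immunoglobulin mu heavy chain gene, had the smallest adjusted p. Its PTU libraries read 3.53, 3.24 and 5.59 CPM and its PTU+TH libraries 73.9, 55.0, 91.0 and 91.6 CPM, a log2 change of 4.23 ± 0.251 (adjusted p = 3.07e-10). All 4 hormone-treated hearts also lay above the untreated mutant hearts, at 8.42, 6.26 and 6.45 CPM. Other B cell genes did not pass the test: of 19 genes in the list 6 were tested and Ighm alone was called. Cd79a, part of the B cell receptor, reached at most 0.252 CPM in the 7 libraries, while the kappa light chain gene Igkc ran from 0.241 to 1.86 CPM. Ighd, the delta heavy chain gene, read 0.673, 0.463 and 0.392 CPM with PTU and 1.43, 0.962, 1.69 and 1.29 CPM with PTU+TH (log2 change 1.36, adjusted p = 0.232).

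**Figure D2:**
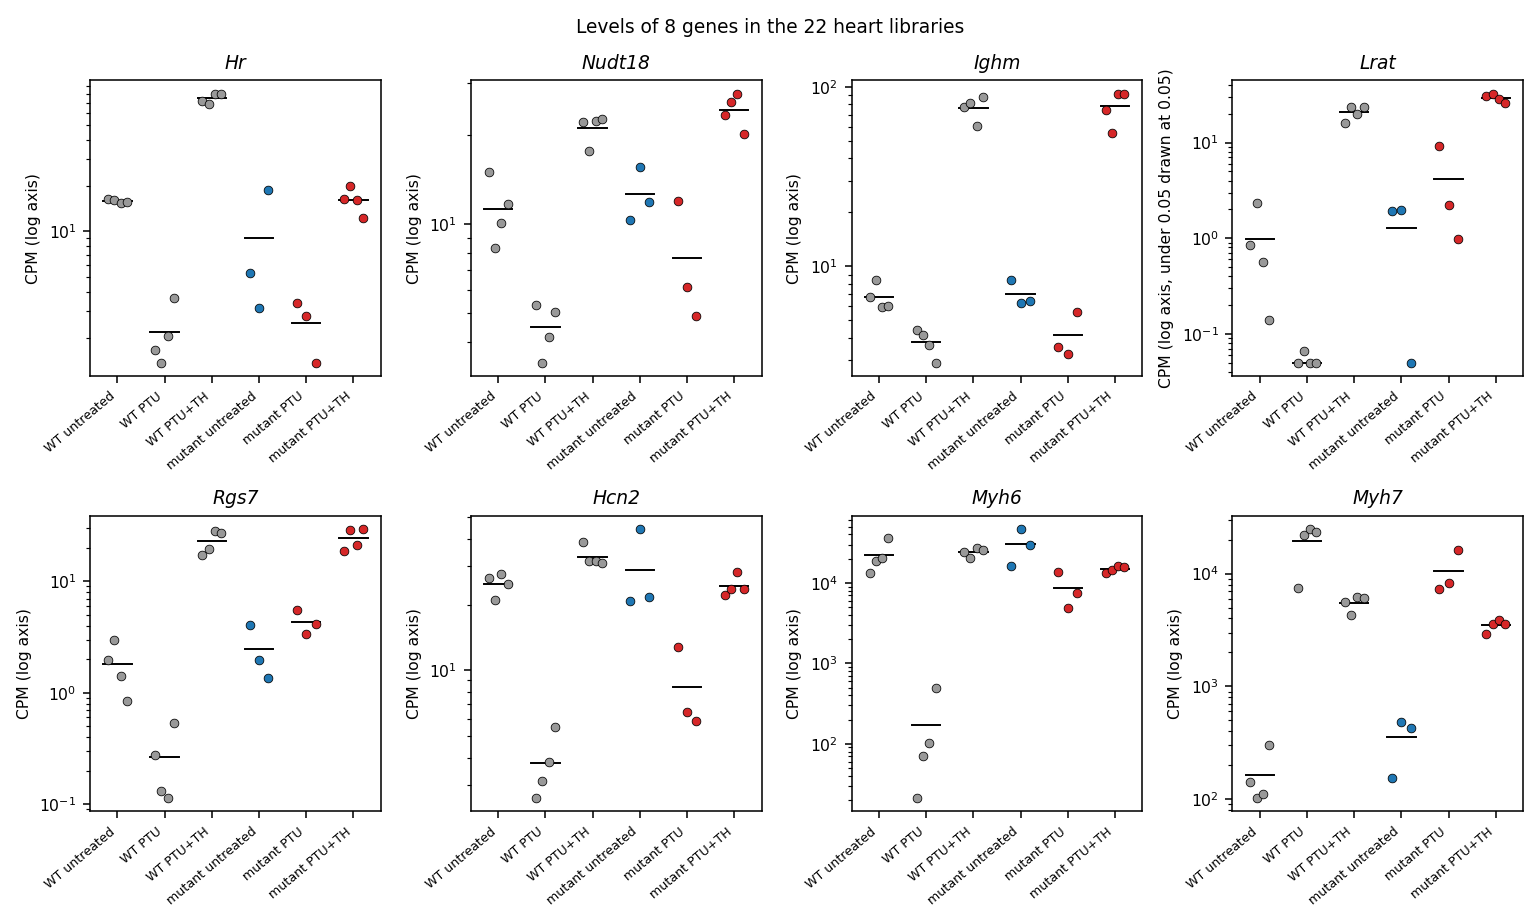
Levels of 8 genes in all 22 heart libraries, in CPM on log axes, with a point per library and a line at each group mean; red marks the 7 mutant PTU and PTU+TH libraries, blue the untreated mutant and grey the WT hearts. Hr stays between 12.4 and 20.1 CPM in the mutant PTU+TH hearts where WT hearts exceed 69 CPM, whereas the PTU+TH hearts of both genotypes overlap for Nudt18, Ighm and Rgs7 and the mutant ones lie higher for Lrat.

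Lypd8l, Rgs7, Tlcd2, Shisa6 and Tmem52, which encode membrane or signalling proteins, were among the named risen genes. Lypd8l, which encodes a protein with a Ly6/PLAUR domain, read 9.67, 2.09 and 0.588 CPM with PTU and 74.7, 112, 87.4 and 48.6 CPM with PTU+TH (4.25 ± 0.546, adjusted p = 0.000517). Rgs7, a regulator of G protein signalling, read 5.55, 3.36 and 4.12 CPM with PTU and 18.9, 29.0, 21.2 and 29.5 CPM with PTU+TH (2.49 ± 0.350, adjusted p = 0.00126). For both genes all hormone-treated hearts exceeded all PTU hearts, but Lypd8l varied widely among the PTU hearts and Rgs7 little. Tlcd2, a membrane protein with a TLC domain, read 3.95, 1.39 and 2.55 CPM with PTU and 16.1, 13.8, 18.2 and 13.4 CPM with PTU+TH (2.51 ± 0.356, adjusted p = 0.00126), and part of its exons overlaps the host gene of a microRNA on the same strand. Shisa6, an auxiliary protein of AMPA receptors, rose by 2.10 ± 0.416 from 1.57 to 3.45 CPM with PTU to 8.22 to 14.1 CPM with PTU+TH, and Tmem52 by 2.92 ± 0.584 from 7 counts over the 3 PTU libraries. Shisa6 was not called without PTU replicate 2 or 3 or PTU+TH replicate 2 (adjusted p = 0.165, 0.206 and 0.0751), nor Tmem52 without PTU replicate 2 or 3 or PTU+TH replicate 3 (0.136, 0.172 and 0.0538).

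Among ion transport genes Hcn2, the pacemaker channel gene, read 12.8, 6.49 and 5.88 CPM with PTU and 22.2, 23.5, 28.1 and 23.7 CPM with PTU+TH (1.53 ± 0.278, adjusted p = 0.00921). Atp1b1, the beta subunit of the sodium pump, read 416, 342 and 313 CPM with PTU and 591, 615, 668 and 653 CPM with PTU+TH (0.82 ± 0.149, adjusted p = 0.00921). In both genes the hormone-treated hearts lay together above the PTU hearts, of which replicate 1 was the highest. Neither was called without PTU replicate 2 (adjusted p = 0.136 for each) or PTU replicate 3 (0.132 for each), nor Atp1b1 with no filter on low counts (0.0981) or Hcn2 in the 10 mutant libraries alone (0.0557). Exons of Atp1b1 overlap those of Nme7 on the opposite strand, whose log2 change was -0.47. Of 27 cardiac channel and connexin genes Hcn2 alone was called, with a list median of -0.12. The slow potassium channel subunit gene Kcne1 read 18.1, 13.1 and 26.3 CPM with PTU and 9.08, 7.46, 6.76 and 5.57 CPM with PTU+TH. Its groups did not overlap, and its log2 change of -1.41 ± 0.341 missed the threshold (adjusted p = 0.0738).

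TH receptors bind the 6-base motif AGGTCA, alone or as repeats, so the 250 bases before the start of each gene in RefSeq (GRCm38.p6) were searched for AGGTCA and its complement TGACCT. Of 38 risen genes 25 had an entry, and 6 of these held the motif (24.0%), as did 2 of 15 fallen genes with an entry (13.3%). Among all tested genes with an entry 1347 of 10419 held it (12.9%). The repeat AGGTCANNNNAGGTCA was held by 0 of these 10419 genes. Its absence from the called genes therefore cannot set them apart from the other tested genes. The upstream sequences of 3 risen genes are shown because they hold the motif and the genes have different roles: Hcn2 (chr10:79716384-79716633, plus strand), the kinase inhibitor gene Inka2 (chr3:105705208-105705457, plus strand) and the hydrolase gene Fhit (chr14:10453459-10453708, minus strand). Capitals mark the motif, which begins 249 and 168 bases before the start of Hcn2, 200 bases before that of Inka2 and 84 bases before that of Fhit.
Hcn2: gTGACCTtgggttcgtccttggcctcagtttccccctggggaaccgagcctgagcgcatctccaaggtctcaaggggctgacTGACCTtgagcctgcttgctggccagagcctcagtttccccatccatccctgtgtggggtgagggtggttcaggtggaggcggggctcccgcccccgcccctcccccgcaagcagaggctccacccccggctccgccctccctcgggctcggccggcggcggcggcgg
Inka2: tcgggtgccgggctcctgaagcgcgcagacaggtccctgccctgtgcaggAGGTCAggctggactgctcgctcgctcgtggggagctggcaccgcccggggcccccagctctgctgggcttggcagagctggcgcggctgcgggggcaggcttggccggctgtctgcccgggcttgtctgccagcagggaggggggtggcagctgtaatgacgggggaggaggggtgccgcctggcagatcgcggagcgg
Fhit: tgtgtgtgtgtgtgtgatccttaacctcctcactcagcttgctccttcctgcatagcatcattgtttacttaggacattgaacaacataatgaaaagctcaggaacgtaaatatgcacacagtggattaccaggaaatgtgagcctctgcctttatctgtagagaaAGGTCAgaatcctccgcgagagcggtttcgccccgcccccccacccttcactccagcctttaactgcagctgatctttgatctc
A match describes these letters only and does not show binding.

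The metabolic enzyme genes Lrat, Pdk4 and Fhit rose with TH. Lrat, the acyltransferase that stores retinol as ester, read 9.25, 2.20 and 0.981 CPM with PTU and 31.0, 32.5, 28.3 and 25.8 CPM with PTU+TH (2.78 ± 0.569, adjusted p = 0.0212). Pdk4, a kinase that inhibits pyruvate dehydrogenase, read 307, 191 and 111 CPM with PTU and 1031, 739, 469 and 484 CPM with PTU+TH (1.75 ± 0.378, adjusted p = 0.0335). Both had their highest PTU level in replicate 1, and for Pdk4 the hormone-treated hearts differed widely too. Fhit, a dinucleotide hydrolase, read 1.18, 0.811 and 0.981 CPM with PTU and 4.20, 3.93, 3.00 and 3.39 CPM with PTU+TH (1.85 ± 0.341, adjusted p = 0.0104). Without PTU replicate 2 or 3 none of these was called, with adjusted p of 0.231 and 0.188 for Lrat, 0.253 and 0.384 for Pdk4, and 0.136 and 0.121 for Fhit. Lrat was also lost without PTU+TH replicate 1 or 2 (0.0512 and 0.0622) and with DESeq2 (0.0938), and Pdk4 without PTU+TH replicate 1 or 2 (0.134 and 0.0934). Lrat was the only call among 12 retinoid genes and Pdk4 the only call among 34 genes of fatty acid oxidation, where list medians were -0.14 and 0.05.

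Further rises came from low counts. Rmi2, part of a DNA repair complex, had 2, 1 and 0 counts in the PTU libraries and 7, 32, 24 and 13 in the PTU+TH libraries, a ratio of 16.1 (exact 95% interval 5.30 to 79.8, counting error only). Prss55, a serine protease gene, had 11, 2 and 1 counts against 47, 35, 40 and 34 (2.85 ± 0.526, adjusted p = 0.0123). Ttbk1, a kinase of tau and tubulin, had 17, 5 and 0 counts against 47, 50, 60 and 54 (2.63 ± 0.457, adjusted p = 0.00819). In each of these genes every hormone-treated library exceeded every PTU library, and PTU replicate 1 held the most counts of its group. Sel1l3 had 2, 1 and 2 counts against 8, 14, 19 and 15 and rose by 2.75 ± 0.528. The antisense gene Foxo6os, whose counts were not low, rose by 1.72 ± 0.323. It had 146, 57 and 33 counts with PTU and 234, 296, 357 and 303 with PTU+TH. These 5 genes were not called without PTU replicate 2 (adjusted p = 0.0828 to 0.166), and all but Ttbk1 were not called without PTU replicate 3 (0.121 to 0.27). Rmi2 was also lost without PTU replicate 1 (0.0532) or PTU+TH replicate 2 or 3 (0.103 and 0.067).

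Acta2, the smooth muscle actin gene, read 100, 99.6 and 100 CPM with PTU and 238, 232, 167 and 191 CPM with PTU+TH. Its log2 change of 1.05 ± 0.238 passed the test narrowly (adjusted p = 0.0497), and leaving out any of the 7 libraries ended the call (adjusted p = 0.0515 to 0.299), as did RLE scaling (0.0538). It was the only call among 14 genes of smooth muscle and pericytes, whose median was -0.13. Other defining genes of smooth muscle did not pass the test: Myh11, its myosin heavy chain gene, had a log2 change of -0.59 (adjusted p = 0.939) and Tagln, a calponin-like protein gene, -0.16 (adjusted p = 1).

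Risen genes outside the naming rule, named after their values were seen, were led by Apln, the ligand apelin. Apln read 7.40, 8.92 and 7.85 CPM with PTU and 16.9, 18.8, 18.8 and 23.5 CPM with PTU+TH (1.28 ± 0.210, adjusted p = 0.00412). The groups were apart, and PTU replicate 1 was here the lowest of its group. The others rose by 0.76 to 1.27: the small GTPase gene Rhoc, Nrep, Inka2, the phosphorylase kinase gene Phkg1, the mitochondrial membrane gene Letm1, the prolyl hydroxylase gene Egln3, Scrn1, the uridine-cytidine kinase gene Uck2, the peroxisomal transporter gene Abcd3, the cAMP-binding Popeye protein gene Bves, Rassf3, the tubulin gene Tubb6, Desi1 and the protease gene Htra1. All of these but Apln lost the call without PTU replicate 2 (adjusted p = 0.0648 to 0.385), and all but Apln and Scrn1 without PTU replicate 3 (0.121 to 0.503). Losses without a PTU+TH library gave 0.0515 to 0.141, and Scrn1 was lost without PTU replicate 1 (0.101). Phkg1, Scrn1, Uck2 and Desi1 share exon bases with a gene on the opposite strand, and no tested partner was called. With no filter on low counts Desi1, Htra1 and Tubb6 were not called (0.105, 0.154 and 0.0943).

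Among structural protein genes TH lowered Cenpf, Myom2 and Lad1. Cenpf, a kinetochore protein, read 35.7, 107 and 89.5 CPM with PTU and 6.12, 19.2, 15.1 and 20.2 CPM with PTU+TH (-2.34 ± 0.477, adjusted p = 0.021). Other genes of cell division did not follow it: 14 of 18 tested had a positive change, none of these was called, and Mki67, a proliferation marker, stayed at 0.927 to 2.87 CPM. Myom2, a protein of the sarcomere's M-band, read 1006, 1269 and 1814 CPM with PTU and 437, 558, 532 and 620 CPM with PTU+TH (-1.34 ± 0.301, adjusted p = 0.045). Lad1, an anchoring filament protein, read 3.62, 4.63 and 6.87 CPM with PTU and 0.860, 0.722, 0.999 and 1.86 CPM with PTU+TH (-2.16 ± 0.401, adjusted p = 0.0106). For Myom2 and Lad1 the highest level was in PTU replicate 3, which carried the atrial genes, a link that was not tested. Without this library the log2 changes of Myom2 and Lad1 were -1.08 (adjusted p = 0.562) and -1.87 (adjusted p = 0.132). Cenpf was not called without PTU replicate 2 or 3 (0.166 and 0.132) or PTU+TH replicates 1, 2 or 3 (0.0927, 0.0515 and 0.0681), Lad1 without PTU+TH replicate 2 (0.0515), and Myom2 without any of the PTU+TH libraries (0.0843 to 0.166) or PTU replicate 2 (0.136). Myom2 was the only call among 27 sarcomere genes, with a list median of -0.11.

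Pde1c, Apod and Cnksr1 fell as well. Pde1c, a phosphodiesterase that degrades cyclic nucleotides, read 64.8, 97.8 and 97.4 CPM with PTU and 35.5, 35, 34.1 and 40.6 CPM with PTU+TH (-1.25 ± 0.186, adjusted p = 0.00204). Apod, an apolipoprotein expressed by fibroblasts, read 15.6, 25.1 and 24.5 CPM with PTU and 8.31, 5.45, 9.61 and 8.31 CPM with PTU+TH (-1.45 ± 0.223, adjusted p = 0.00215). In both every hormone-treated heart lay below every PTU heart, and PTU replicate 1 was the lowest of the PTU libraries. Cnksr1, a scaffold of Ras signalling, fell by 1.25 ± 0.258, and the call was lost without PTU replicate 2 or PTU+TH replicate 2 or 4 (adjusted p = 0.285, 0.11 and 0.107). With Rgs7, Pde1c made up the calls among 24 adrenergic and muscarinic signalling genes (1 higher and 1 lower), where the beta-1 receptor gene Adrb1 had a log2 change of 0.28 (adjusted p = 0.99). Apod was the only call among 27 fibroblast and matrix genes.

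The desaturase gene Scd4 read 10.8, 13.1 and 37.1 CPM with PTU and 4.30, 5.61, 4.30 and 6.54 CPM with PTU+TH (-1.96 ± 0.409, adjusted p = 0.0246). Its high PTU mean came from replicate 3, which also held the adipocyte genes Adipoq (5.10 CPM against 0.0841 and 0.463 CPM) and Plin1 (2.94 CPM against 0.168 and 0 CPM). Without that library the log2 change was -1.19 (adjusted p = 0.681), and without PTU+TH replicate 1, 2 or 3 the adjusted p was 0.104, 0.0781 and 0.0992. Among 9 adipocyte genes tested none was called. Summed over the 12 adipocyte genes of the list, levels were 633 to 683 CPM in the PTU and 615 to 697 CPM in the PTU+TH group. The sum thus did not set PTU replicate 3 apart as Adipoq and Plin1 did. A link between these genes and the level of Scd4 was not tested.

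The other named genes that fell were Slc5a1, Tmem232, Retreg1, Lrrc2, Mov10l1, Cep128, Nme5 and Ift57. Slc5a1, a sodium-glucose cotransporter, had 9, 11 and 11 counts with PTU and 1, 2, 4 and 2 with PTU+TH (-2.40 ± 0.475, adjusted p = 0.0169). Tmem232 had 10, 23 and 22 counts against 1, 4, 3 and 2 (-3.11 ± 0.592, adjusted p = 0.0123). Every hormone-treated library lay below every PTU library in both. Retreg1, a receptor for autophagy of the endoplasmic reticulum, read 125, 251 and 258 CPM with PTU and 75.1, 85.3, 84.5 and 89.7 CPM with PTU+TH (-1.34 ± 0.244, adjusted p = 0.00921). Lrrc2, a leucine-rich repeat protein of heart, read 313, 484 and 416 CPM with PTU and 207, 226, 158 and 191 CPM with PTU+TH (-1.05 ± 0.168, adjusted p = 0.00331). Retreg1 and Lrrc2 were abundant, and their lowest PTU library, replicate 1, lay nearest to the hormone-treated hearts. Mov10l1, an RNA helicase known from the germ line, fell by 1.47 ± 0.259 from 30.4 to 58.5 CPM with PTU to 14.0 to 21.2 CPM with PTU+TH, the centriole gene Cep128 by 1.33 ± 0.291, and the cilium genes Nme5 and Ift57 by 1.15 ± 0.258 and 0.73 ± 0.157. Without PTU replicate 2 none of these 8 genes was called (adjusted p = 0.0512 to 0.383), and without PTU replicate 3 only Lrrc2 was (the other 7 had 0.107 to 0.287). Leaving out a PTU+TH library ended calls of Slc5a1, Tmem232, Cep128, Nme5 and Ift57 (0.0503 to 0.16), and leaving out PTU replicate 1 those of Nme5 and Ift57 (0.0588 and 0.0596), which were not called with no filter either (0.0935 and 0.352).

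The myosin heavy chain genes, the classical markers of TH in rodent heart, did not pass the test in mutant hearts. Myh6 (ENSMUSG00000040752) stood at 13714, 4875 and 7473 CPM in the PTU libraries and at 13328, 14360, 16273 and 15814 CPM in the PTU+TH libraries. PTU replicate 1 lay inside the range of the hormone-treated hearts, and the log2 change was 0.78 ± 0.617 (adjusted p = 0.963). Without PTU replicate 1 it was 1.28. Myh7 (ENSMUSG00000053093) stood at 7268, 8313 and 16282 CPM with PTU and at 2928, 3576, 3879 and 3585 CPM with PTU+TH. Its groups did not overlap, and its log2 change of -1.60 ± 0.410 had an adjusted p of 0.105. With DESeq2, with no filter, or in a fit of the 7 libraries alone Myh7 was called (adjusted p = 0.0114, 5.3e-07 and 0.00921). Untreated mutant hearts stood far lower, at 153, 482 and 432 CPM of Myh7. Exons of Myh7 overlap the antisense gene Mhrt.

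Over all genes tested 0.268% were called higher and 50.4% had a positive change. Of 19 tested genes that TH is known to raise in the heart 3 were called higher, Hr, Hcn2 and Atp1b1. The list, like all 35, was chosen with earlier results of these data known. Of its genes 17 had a positive change, with a median log2 change of 0.28. Among those with larger changes that did not pass were the uncoupling protein gene Ucp3 (1.18), the lactate transporter gene Slc16a3 (1.05, below 1 CPM), Myh6, the pacemaker channel gene Hcn4 (0.55) and the glycerophosphate dehydrogenase gene Gpd2 (0.43). Smaller changes were those of Adrb1 (0.28), Atp2a2 (0.27), Me1 (0.27), Thrsp (0.25), Ucp2 (0.18), Klf9 (0.04), Kcnd2 (0.03), Kcnd3 (0.02), Slc2a4 (-0.02) and Kcna5 (-0.46). Ucp3 read 43.8, 17.0 and 23.8 CPM with PTU and 51.8, 72.6, 66.6 and 65.7 CPM with PTU+TH, groups that did not overlap (adjusted p = 0.448). Atp2a2, the calcium pump of the sarcoplasmic reticulum, read 8631, 8587 and 7760 CPM with PTU and 9191, 10715, 10876 and 9308 CPM with PTU+TH (adjusted p = 1).

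Among all genes tested 0.141% were called lower and 50.4% of changes were positive. Of 11 tested genes known to fall with TH none was called and 10 had a negative change, with a median of -0.42. Beside Myh7 and Kcne1 these were the slow troponin gene Tnni1 (-0.89), Myh7b (-0.49), the sodium-calcium exchanger gene Slc8a1 (-0.42), the receptor gene Thra (-0.42), phospholamban, Pln (-0.39), the adenylyl cyclase genes Adcy6 (-0.32) and Adcy5 (-0.14), and the G protein gene Gnai2 (-0.21), while Gnai3 had a change of 0.13. Pln, the inhibitor of the calcium pump, read 7158, 10548 and 9099 CPM with PTU and 6503, 6932, 6841 and 6948 CPM with PTU+TH (adjusted p = 0.874). Among 11 receptors, retinoid X receptors, deiodinases and transporters of TH none was called, the changes lying between -0.42 (Thra) and 0.27 (Rxrb), and none of 18 corepressor and coactivator genes was called (median -0.12).

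In 22 of the 35 gene lists no member was called. Calcium handling (20 genes, median 0.02), the circadian clock (19, -0.15), glycolysis (28, -0.04), nuclear oxidative phosphorylation (40, 0.08), cholesterol synthesis (23, 0.06), the interferon response (23, 0.14) and macrophages (22, 0.01) were among them. Ribosome biogenesis genes had 17 of 20 positive changes (median 0.22), as had all 10 red blood cell genes (median 0.70), with no call in either list; over all genes 50.4% of changes were positive. The haemoglobin gene Hbb-bs stood at 321, 264 and 651 CPM with PTU and at 488, 178, 1440 and 334 CPM with PTU+TH, so that PTU+TH replicate 3 carried most. Tfrc, the transferrin receptor, stood at 196, 62.6 and 75.2 CPM with PTU and at 268, 222, 281 and 292 CPM with PTU+TH (log2 change 1.25, adjusted p = 0.345). Immediate early genes had a median of 0.36 over 19 genes, led by Arc at 1.49 (adjusted p = 0.11).

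**Figure D3:**
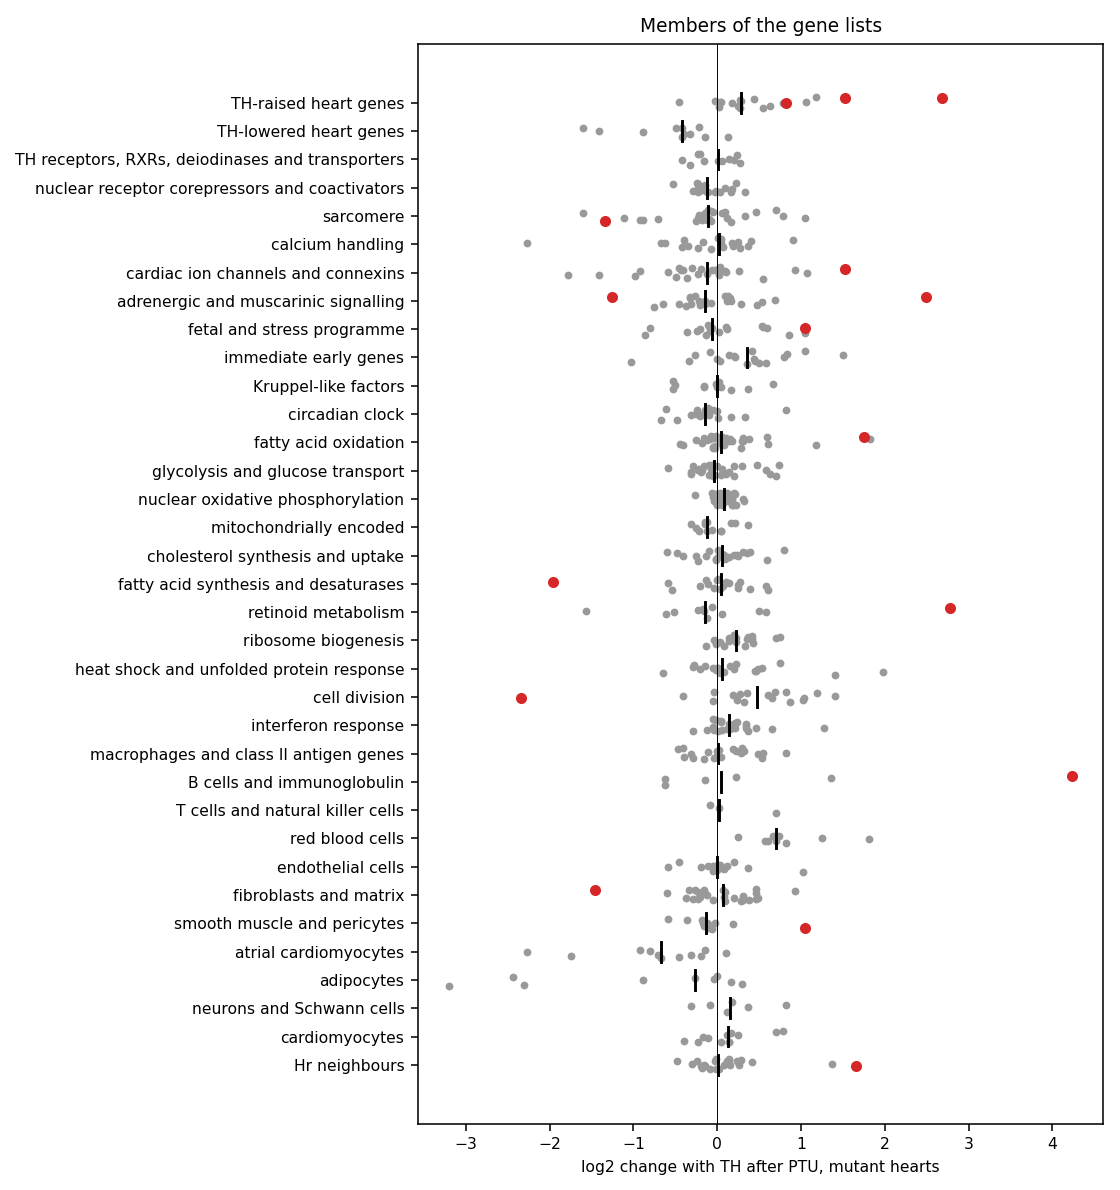
Log2 change with TH in mutant hearts of each tested member of the 35 gene lists, a row per list and a point per gene; red points passed the test and black ticks are list medians. The medians of most lists lie near 0, and no list has more than 3 called members.

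Next the mutant response was set beside that of WT hearts, which share no library with it. Both responses came from the same fit and its estimates of the spread between libraries, so their calls are not independent. The WT comparison had 4 PTU libraries and the mutant one 3, so the numbers of calls are not directly comparable. TH changed 1614 genes in WT hearts (11.4%), 823 higher (5.81%) and 791 lower (5.59%). All 58 genes called in mutant hearts were also called in WT hearts and in the same direction, which is 100% of the mutant and 3.59% of the WT calls. In 54 of the 58 the mutant log2 change was the smaller, the exceptions being Apod, Fhit, Sel1l3 and Scd4. The 823 genes raised in WT had a median log2 change of 1.05 there and of 0.43 in mutant hearts, where 792 (96.2%) were positive and 38 were called. The 791 genes lowered in WT had medians of -0.95 in WT and -0.43 in mutant hearts, where 32 (4.05%) were positive and 20 were called. Choosing genes by a call in WT favours large WT values, so these medians describe both genotypes without testing the difference.

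**Figure D4:**
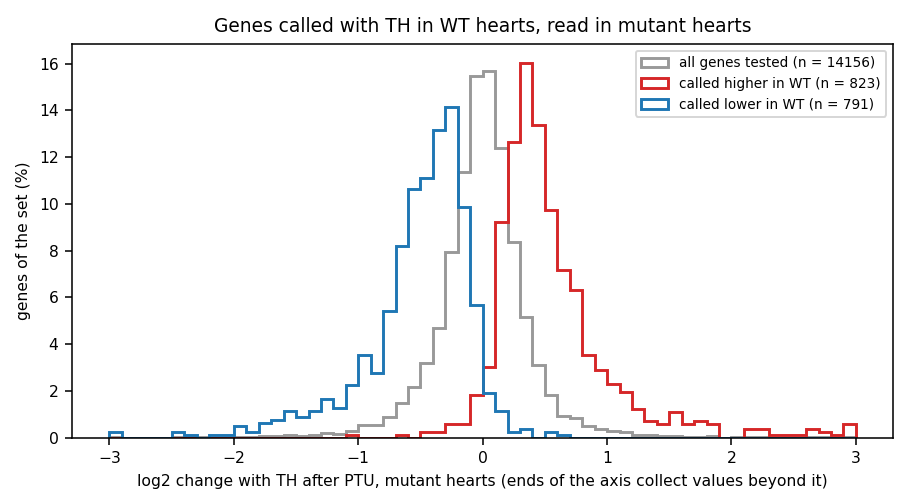
Distribution of the log2 change with TH in mutant hearts for all 14156 genes tested (grey), the 823 genes raised (red) and the 791 genes lowered (blue) by TH in WT hearts, as a percentage of each set. The medians are 0.43 for the red and -0.43 for the blue histogram, on either side of the grey one.

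The PTU libraries differed in where they lay along this response. Replicate 1 was the highest of the 3 PTU libraries in 565 (68.7%) of the genes raised in WT and the lowest in 540 (68.3%) of the genes lowered in WT, against 35.9% and 34.8% of all genes tested. Of the genes called in mutant hearts it was the highest in 32 of 38 risen and the lowest in 15 of 20 fallen genes. Without replicate 1 the mutant medians of the WT sets were 0.54 and -0.52, against 0.38 to 0.45 and -0.34 to -0.45 when any other library of the 7 was left out, a setting chosen after seeing the data. No label sets this library apart, and its total of 11.9 M counts and its 37.3% of reads given to no gene are like those of the others.

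The difference between the responses was tested as an interaction. It was called in 41 genes (0.29%), of which 39 had a difference below 0 (0.276%) and a positive change in WT hearts. The other 2 had a difference above 0 (0.0141%), Rnf122 (1.65) and Tmem164 (1.40), which TH lowered in WT hearts. Without mutant PTU replicate 1 the count was 11, all among the 41: Rgs7, Gm28979, Foxo6os, Trim7, Inka2, Frem2, Mdga1, Myh6, Spata33, Stat5a and Gm29560. It was 25 and 26 without mutant PTU+TH replicates 3 and 4, 26 and 27 without WT PTU+TH replicates 2 and 3, and 24, 17 and 68 without WT PTU replicates 1, 3 and 4. Except for Gm29560, the genes just listed were called in each fit that left out a single library. Of the 58 genes called in mutant hearts 11 also had a called difference.

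In 10 of these 11 genes every mutant PTU heart stood above every WT PTU heart, and the hormone-treated hearts of the genotypes overlapped except for Lypd8l and Lrat, where the mutant ones were higher. The 11 genes were picked by a smaller rise in mutant than in WT hearts, which favours a high mutant PTU level. The share of all genes tested with this order was not computed. Rgs7 averaged 24.7 ± 5.39 CPM in mutant and 23.0 ± 5.58 CPM in WT hearts after TH, but 4.34 ± 1.11 CPM (n = 3) against 0.264 ± 0.195 CPM (n = 4) with PTU. Tlcd2 averaged 15.4 ± 2.23 and 15.6 ± 1.98 CPM after TH, and 2.63 ± 1.28 against 0.330 ± 0.160 CPM with PTU. With PTU the same order held for Inka2, at 31.1 ± 5.35 against 7.25 ± 1.42 CPM with PTU, for Apln, Foxo6os, Prss55, Gm30735 and Gm28979, and for Lrat and Lypd8l, whose means after TH were 29.4 CPM in mutant against 20.8 CPM in WT hearts and 80.8 against 44.3 CPM. Hr was the exception. Its PTU means were 2.51 ± 1.02 CPM in mutant and 2.19 ± 1.03 CPM in WT hearts, and its means after TH were 16.2 ± 3.15 and 75.7 ± 5.66 CPM (difference in log2 change -2.45 ± 0.533, adjusted p = 0.0459). That call was lost when any library of the 4 groups other than mutant PTU replicate 3 or WT PTU replicate 4 was left out (adjusted p = 0.0559 to 0.518). Without mutant PTU replicate 1 the call was also lost for Lypd8l (0.314), Prss55 (0.691), Lrat (0.163), Gm30735 (0.957), Tlcd2 (0.132) and Apln (0.0655), and without WT PTU replicate 3 for these genes except Tlcd2 (0.0592 to 0.121).

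Over all 38 risen genes the mutant PTU mean lay above the WT PTU mean in 34, or in 31 without PTU replicate 1, and the mutant PTU+TH mean lay below the WT one in 17. Among the 20 fallen genes the mutant PTU mean was the lower in 19, or in 17 without PTU replicate 1, and the mutant PTU+TH mean the higher in 10. The shares of all genes tested with these orders were not computed, so the counts describe the called genes only. After TH, mutant hearts stood above the untreated mutant mean in 34 of the 38 risen genes and below it in 16 of the 20 fallen genes. WT hearts after TH stood above the untreated WT mean in 36 of the same 38 and below it in 17 of the same 20. Choosing genes by a call with TH favours such an order, and its share over all genes was not computed.

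Myh6, not called in mutant hearts, had a called difference between the genotypes. WT PTU hearts read 21.2 to 488 CPM and mutant PTU hearts 4875 to 13714 CPM, whereas after TH the means were 24452 ± 2760 CPM in WT and 14944 ± 1351 CPM in mutant hearts. The difference in log2 change was -6.38 ± 0.878 (adjusted p = 0.000721) and was called whichever library was left out. Mdga1, chosen after its values were seen, read 15.4, 12.0 and 9.71 CPM with PTU and 22.3, 22.9, 27.2 and 24.1 CPM with PTU+TH in mutant hearts, groups that did not overlap. Its log2 change was 0.96 ± 0.223 (adjusted p = 0.0587) against 3.48 in WT hearts. Stat5a, a signal transducer of cytokine receptors, was likewise raised in WT hearts (2.65), with a change of 0.70 ± 0.192 in mutant hearts (adjusted p = 0.146). For 4 genes with a called difference the WT PTU hearts held 0 counts, which makes the WT change a bound, at least 84.3-fold for Prss55 and at least 91.4-fold for Gm28979 when 3 counts in the whole group are taken as the floor. The ratio for Lrat, with 1 count there and 1145 in the hormone-treated WT hearts, was 1420 (254 to 56144, the 95% counting interval).

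**Figure D5:**
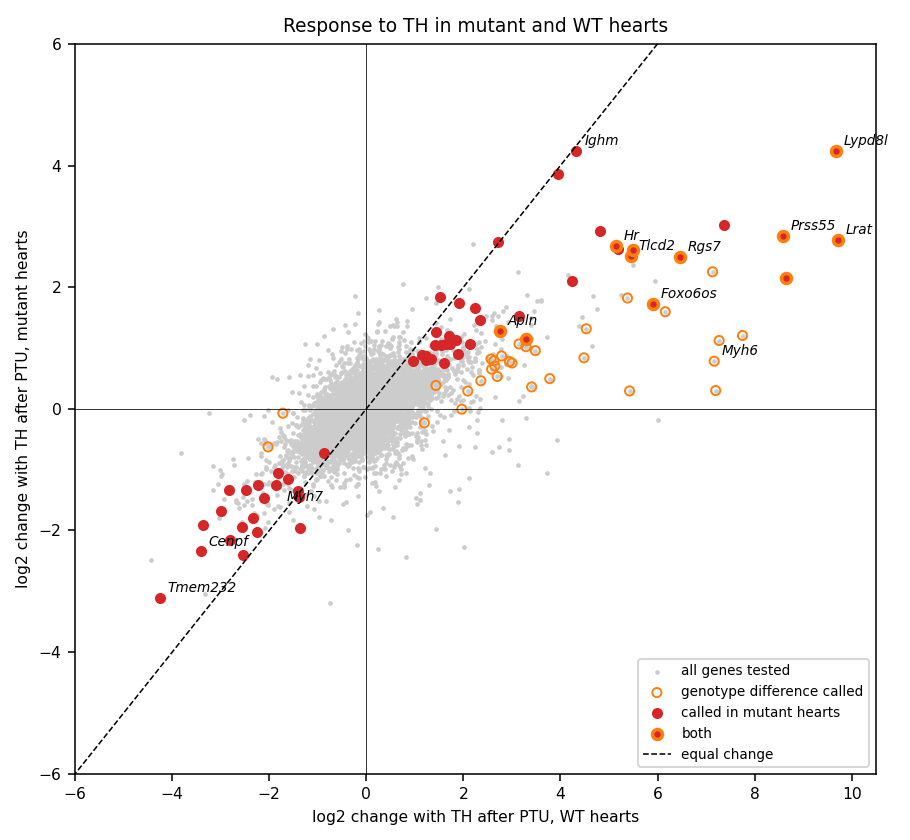
Log2 change with TH after PTU in WT hearts (x axis) and mutant hearts (y axis) for the genes tested; red marks genes called in mutant hearts, orange rings a called difference between the genotypes, and the dashed line equal change. Ighm (4.33 and 4.23) lies on the line, while Lrat, Prss55, Rgs7 and Myh6 lie far to its right.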

How the data were processed

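The authors deposited raw counts per gene, 1 library per file, for 57010 genes and 5 further lines of reads given to no gene, which were left out of library totals and tests. The labels' protocols name the Lexogen CORRALL V2 kit (spelled so) and 1 ug of total RNA. Bowtie2, HTSeq and the build GRCm39 are named without versions per the submitters' processing notes. Annotation release, strand setting and molecular identifiers were not given in the sources used here.

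Counts were fitted in edgeR 4.0.16 (R 4.3.3) over the 22 heart libraries with 1 coefficient per group, filterByExpr at a minimum count of 10, TMM scaling and the two-sided quasi-likelihood F test, and adjusted by Benjamini-Hochberg over 14156 genes. The SE is the log2 change divided by the square root of F. The steps were tested on simulated data. DESeq2 1.42.0, other scaling, no filter, other sets of libraries and the replicate number as a block were alternatives. No 2 libraries agreed within sampling noise. Library shares were compared by an exact permutation test. Exon overlaps of at least 50 bases came from GENCODE M21 by gene ID (112 of 114 found), and promoters from RefSeq.

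The rule for named genes takes Hr, Myh6, Myh7, the called genes that rose most and fell most (15 each at most), up to 6 called members per list, all genes known to rise or fall with TH, and up to 10 genes per direction of the genotype difference. Genes without an assigned symbol were counted. Values of 2 list members are not reported here. The members and the 35 lists were chosen with earlier results of these data known.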

Additional observations from a re-analysis of the deposited data

Results flagged for a closer look

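In 5 of 91 genes examined 1 of the 4 mutant PTU+TH libraries stood apart from the other 3 by more than Dixon's 95% limit, where chance gives about 1 in 20. Replicate 2 was apart in Nrep (24.8 CPM against 20.7 to 21.0 CPM), in Slc16a3 (0.481 CPM against 0.726 to 0.769 CPM) and in Me1, the malic enzyme gene (113 CPM against 93.9 to 96.4 CPM). Replicate 1 was apart in Uck2 (73.4 CPM against 48.2 to 51.0 CPM) and in Adrb1 (22.6 CPM against 17.9 to 18.4 CPM). Uck2 was not called without that library (adjusted p = 0.118), nor Nrep without its own (adjusted p = 0.0934), in edgeR's quasi-likelihood test.

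The response to TH differed between mutant and WT hearts by the interaction test in the genes named here, with differences in log2 change (mutant minus WT) of -5.43 for Lypd8l, -5.73 for Prss55, -6.93 for Lrat, -2.45 for Hr, -2.88 for Gm30735, -2.93 for Tlcd2, -3.96 for Rgs7, -6.50 for Gm28979, -4.19 for Foxo6os, -1.49 for Apln and -2.14 for Inka2, all of which rose in mutant hearts. Among genes not called in mutant hearts it was -6.38 for Myh6, -3.56 for Klhl33, -3.22 for Trim7, -3.65 for Rtn4r and -3.28 for Flrt1, and 1.65 for Rnf122 and 1.40 for Tmem164. Values for Prss55, Gm28979, Lrat and Lypd8l rest on at most 3 counts over the 4 WT PTU hearts, so the fitted size depends on the prior count of 0.125 and is no bound.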

How the results depend on the processing

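Against 58 calls in mutant hearts (38 higher, 20 lower), no filter on low counts gave 151 (79 and 72), DESeq2 133 (78 and 55) and the 7 libraries alone 240 (133 and 107), while the 10 mutant libraries alone gave 25 higher. With mutant PTU replicate 3 and PTU+TH replicate 4 left out, chosen after seeing the data, 2 were called, 2 higher and 0 lower, by edgeR's quasi-likelihood test. Without each library the calls ran from 15 to 106, the higher from 8 to 65 and the lower from 5 to 41. For the genotype difference, 41 calls became 136 with no filter, 87 with DESeq2 and 11 to 68 without each library. Other scaling changed neither count by over 1.5 times. The cause of these shifts was not tested.

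Replicate numbers did not pair the libraries (correlations of same-numbered deviations 0.207, -0.0635 and -0.0521), and no PTU library but replicate 1 correlated best with its own number. With the replicate number as a block the calls were 75 (43 higher and 32 lower), and the genotype difference 49. The block reversed Klf9 (-0.0207), Kcnd2 (-0.0646) and Kcnd3 (-0.100), none of them called.

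Other reversals were also of genes far from a call. Without each library Klf9 ran from -0.0275 to 0.15, Kcnd2 from -0.0946 to 0.17, Kcnd3 from -0.0985 to 0.11, Slc2a4 from -0.14 to 0.0804, Rnf122 from -0.21 to 0.0558 and Adcy5 from -0.23 to 0.0154. Without mutant untreated replicate 2, which holds 3.27 M counts, Kcnd3 was at -5.98e-05. With the 2 atrial-rich libraries out, Klf9 was at -0.0743, Kcnd3 at -0.00810, Rnf122 at 0.112 and Adcy5 at 0.0264. No gene called in mutant hearts reversed in any of 15 settings. With 3 PTU libraries and counts near 10 M, low genes such as Rmi2 and Slc5a1 rest on a few counts per library.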
